A study of Mus musculus with 9 samples.

Results

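Gata3, Ovol1, Msx1, Msx2, Trps1, Dlx3 and Foxn1 are transcription factor genes that take part in setting the hair lineages of the follicle. These 7 genes were chosen by name, with earlier results of these data known. They stood on 10 of the 22690 probe sets of the array, out of 12393 genes named there, and each was represented by its probe set with the highest mean log2(signal + 16). The 9 arrays held RNA from cells sorted out of back skin of female CD1 mice carrying Lef1RFP/K14H2BGFP, reporters in which Lef1 control drives a red protein and the keratin 14 promoter drives a green histone. Bulge cells (green, not red, CD34 positive, P-cadherin low) and hair germ cells (green, not red, CD34 negative, P-cadherin high) came from the trypsin fraction of the skin, and dermal papilla cells (red, not green, negative for CD45, integrin alpha 7 and CD117, with CD34 also listed as negative in the titles) from the collagenase fraction, so digestion and population cannot be told apart. Each population was taken at postnatal days 43, 56 and 69, the early, middle and late parts of telogen, the resting phase of the hair cycle, with 1 array each, after 2 rounds of RNA amplification. No label says how many mice gave an array or whether the arrays of a day shared mice. P-values therefore measure the spread between these arrays left after a shared age term, with day effects that differ between populations included.

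In a growing follicle, matrix cells at the base leave division and enter the concentric layers of the inner root sheath and the hair shaft, and this matrix is rebuilt at each cycle from hair germ and bulge cells under signals from the dermal papilla. GATA3 directs inner root sheath fate, and FOXN1, the product of the nude locus, and HOXC13 act in keratinisation of the shaft. MSX2 and DLX3 are homeodomain proteins of the matrix and shaft that respond to BMP signalling, and MSX1 is a paralog of MSX2. OVOL1 is a zinc finger repressor that takes progenitor cells out of the cell cycle, and TRPS1 is an atypical GATA protein that represses transcription and is needed for hair follicle formation.

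The sequences before the transcription start are shown for the 3 tested genes that have an entry in the RefSeq promoter table (4 of the 7 genes have one, the other being Foxn1), because these genes fell into different expression patterns. Each line gives 250 bases before the start, 5′ to 3′ on the gene's own strand, build GRCm38.p6. Capitals mark matches, on either strand, to the motifs that proteins of this group or LEF/TCF factors are known to bind. The homeodomain motif was searched as TAATTG or as the word TAATTA. The GATA motif was AGATAA or the word AGATAG, the word TGATAA or the word TGATAG. The LEF/TCF motif was CTTTGA or the word CTTTGT, the OVOL1 motif CCGTTA and the FOXN1 motif GACGC. No matches overlap in these sequences.
Gata3, minus strand of chr2:9878601-9878850: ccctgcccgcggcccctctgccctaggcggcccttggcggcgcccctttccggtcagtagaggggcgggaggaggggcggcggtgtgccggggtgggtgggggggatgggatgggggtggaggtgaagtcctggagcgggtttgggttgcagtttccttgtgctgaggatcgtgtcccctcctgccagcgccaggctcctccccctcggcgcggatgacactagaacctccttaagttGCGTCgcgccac
Msx1, minus strand of chr5:37824586-37824835: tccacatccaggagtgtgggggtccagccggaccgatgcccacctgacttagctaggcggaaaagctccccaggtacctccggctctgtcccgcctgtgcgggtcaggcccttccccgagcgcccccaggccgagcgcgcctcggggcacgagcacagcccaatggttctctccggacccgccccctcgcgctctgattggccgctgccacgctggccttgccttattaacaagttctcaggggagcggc
Msx2, minus strand of chr13:53472781-53473030: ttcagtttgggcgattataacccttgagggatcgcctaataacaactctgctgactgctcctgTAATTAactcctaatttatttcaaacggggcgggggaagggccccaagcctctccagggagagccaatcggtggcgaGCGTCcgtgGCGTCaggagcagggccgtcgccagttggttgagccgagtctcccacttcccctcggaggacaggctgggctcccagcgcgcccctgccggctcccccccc
The Gata3 window held 1 GACGC on the opposite strand. The Msx2 window held 1 TAATTA, at bases 187 to 182 before the start, and 2 GACGC. None of the letters searched occurred in the Msx1 window. Of all 32851 windows of this length, 11.3% held a homeodomain match, 26.5% a GATA match, 27.6% a LEF/TCF match, 2.18% a CCGTTA and 22.6% a GACGC. GC content was 70.0% for Gata3, 68.0% for Msx1 and 61.6% for Msx2, against a median of 52.4% over all windows. These matches are a description of letters only.

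Sort genes followed the labels where they were measured: Cd34 signals were 3098 to 3464 in bulge and at most 36.7 elsewhere, and Krt14 signals were at least 1644 in both epithelial populations and at most 39.0 in dermal papilla. The P-cadherin probe set (Cdh3) checked nothing, with signals of at most 35.0 on any array. Median signals of the arrays ran from 39.9 to 56.3. RNA quality differed. The GAPDH 3′/5′ ratio, which rises as RNA is degraded or transcribed short, read 8.34 on day 43 and 7.90 on day 69 in hair germ but 2.97 on day 56, was 6.62 in the day 43 dermal papilla array, and lay between 3.77 and 5.09 on the other 5 arrays.

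Of the 7 genes, 5 lay above their own array's median signal on at least 3 of the 9 arrays and were tested, among 7796 genes. Gata3 was higher in hair germ than in bulge and higher in bulge than in dermal papilla. Ovol1 was higher in hair germ than in either other population. It was also called higher in bulge than in dermal papilla, but with signals below the array medians in both. That call was lost under 5 of 18 alternatives. Trps1 was about 10-fold higher in dermal papilla than in either epithelial population. Msx1 was lower in hair germ than bulge with an adjusted p just under the threshold, and Msx2 differed between no pair of populations beyond its spread over the days. Ovol1 passed the filter through its 3 hair germ arrays alone, so its testing already presupposed a difference. Dlx3 and Foxn1 lay below the median on all 9 arrays and were not tested.

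**Figure D1:**
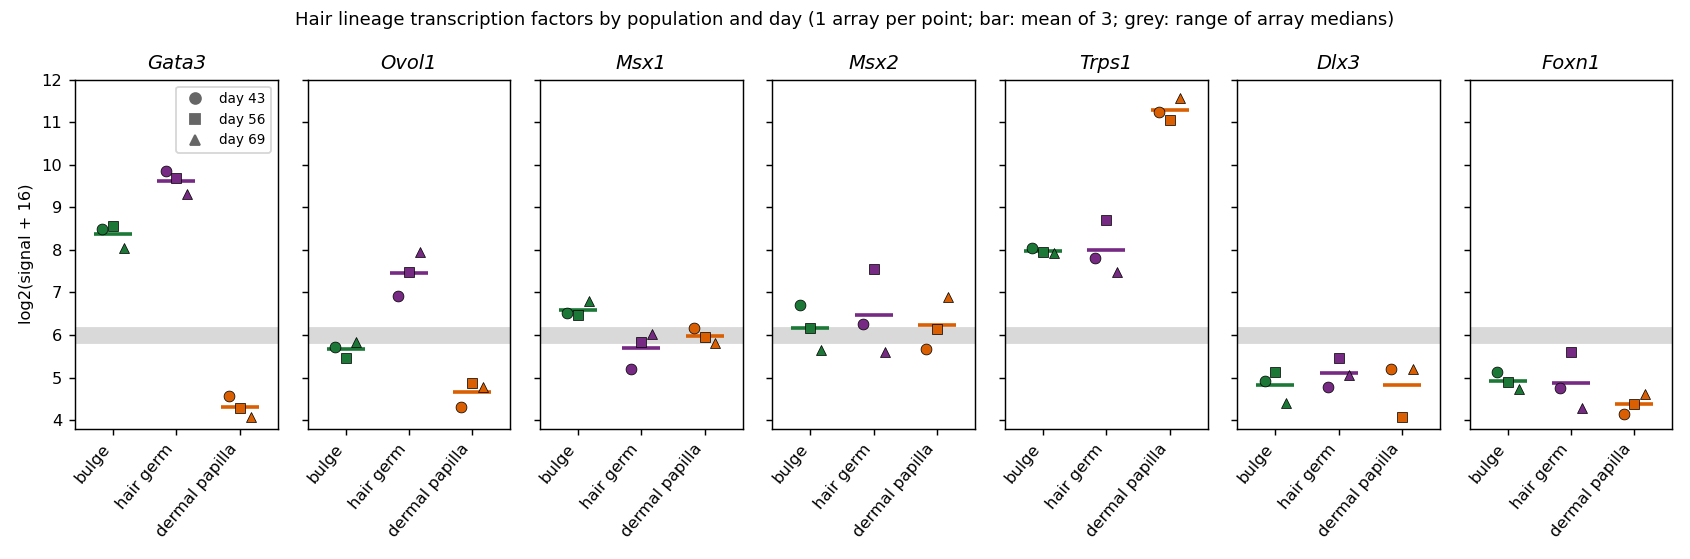
Level of each of the 7 genes, as log2(signal + 16), in bulge, hair germ and dermal papilla. Each point is 1 array (circle day 43, square day 56, triangle day 69), the bar is the mean of 3 arrays, and the grey band spans the array medians, 5.81 to 6.18; Gata3 and Ovol1 are highest in hair germ, Trps1 in dermal papilla, and all points for Dlx3 and Foxn1 lie below the band.

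Gata3, like Ovol1, was called in all 3 pairs of populations. Its signals in hair germ were 909.6, 806 and 624 on days 43, 56 and 69. The bulge arrays gave 343, 362 and 249, and the arrays of dermal papilla 7.69, 3.45 and 0.935. Every hair germ array was above every bulge array, and every bulge array above every dermal papilla array. On the log2(signal + 16) scale the means were 9.62 ± 0.27 (SD, n = 3), 8.36 ± 0.28 and 4.31 ± 0.24. The difference was 1.26 ± 0.21 (SE) between hair germ and bulge, 2.39-fold (limma, adjusted p = 0.00191). It was 5.31 ± 0.21 between hair germ and dermal papilla (limma, adjusted p = 3.28e-08), and 4.05 ± 0.21 between bulge and dermal papilla (limma, adjusted p = 1.18e-07). All 3 calls held under the 19 alternatives, but the size against dermal papilla depends on the added constant because signals there were near 0: hair germ minus dermal papilla was 7.52 with a constant of 1 and 3.62 with 64. In sorted bulk RNA, fewer cells expressing a gene and less RNA per cell cannot be told apart, here and in what follows.

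T cells also express Gata3 and can lodge in follicle epithelium. The T cell receptor component gene Cd3g had signals of 117, 125 and 124 in bulge, 12.3, 32.7 and 53.5 in hair germ and at most 3.62 in dermal papilla. Of the 6 T cell markers on the array, 3 were above the array median on some bulge array and 1 on some hair germ array, that one being Thy1, which other cells also express. The summed T cell signal was 251 to 307 in bulge, 243 to 965 in hair germ and 179 to 370 in dermal papilla, with the 965 on day 43 coming mostly from Thy1 at 916. The part of T cells in the Gata3 values was not tested. Epidermal differentiation and inner bulge markers, 10 genes, summed to 14366 to 40525 in hair germ, 6619 to 8691 in bulge and 330 to 787 in dermal papilla. That sum had the same order as Gata3 and Ovol1, as did Krt1, Krt10, Krtdap and Ly6d singly. Krt10 was the largest part, at 8552 to 21362 in hair germ. Krt75 went the other way, at 238 to 315 in bulge and at most 24.2 in hair germ. Krt6a was at 4105 to 4190 in bulge and at 4623, 257 and 1304 in hair germ on days 43, 56 and 69. Lor did not have the order of the sum either. Its signals on these days were 69.1, 42.1 and 29.4 in bulge and 63.6, 142 and 49.5 in hair germ. In dermal papilla Lor was at 43.0, 47.5 and 89.8. The part of these genes in the Gata3 and Ovol1 differences was not tested.

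Ovol1 signals were highest in hair germ. Its brighter probe set gave signals of 105, 163 and 232 in hair germ on days 43, 56 and 69, against 36.8, 27.8 and 40.9 in bulge and 3.79, 13.2 and 11.3 in dermal papilla. All hair germ arrays were above all others, and the bulge arrays, although above those of dermal papilla, were below their own array medians. The difference between hair germ and bulge was 1.78 ± 0.29 (SE), 3.44-fold (limma, adjusted p = 0.00164), and that between hair germ and dermal papilla 2.80 ± 0.29 (limma, adjusted p = 1.85e-05). Ovol1 passed the filter through its hair germ arrays alone. With no filter, so that all 12393 genes were tested, the difference between hair germ and bulge had an adjusted p = 0.00413 by limma. The unfiltered limma adjusted p was 6.2e-05 for hair germ against dermal papilla and 0.0336 for bulge against dermal papilla. The second Ovol1 probe set also had every hair germ array above all others, at 46.1, 90.0 and 176. Its signals were 12.9, 9.53 and 5.85 in bulge and 2.88, 7.19 and 8.31 in dermal papilla, with overlap between them. On the brighter probe set, bulge and dermal papilla differed by 1.02 ± 0.29 (limma, adjusted p = 0.0169). That call was lost with the mean of both probe sets (adjusted p = 0.143), with an added constant of 64 (adjusted p = 0.0844), and without bulge replicate 1 or dermal papilla replicates 1 or 3 (adjusted p = 0.0554 to 0.123).

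Trps1 showed the reverse arrangement, with the highest level in the mesenchyme. Signals in dermal papilla were 2419.8, 2102 and 3023 on days 43, 56 and 69. They were 249.7, 229 and 229 in bulge and 208, 401 and 162 in hair germ, so no epithelial array came near those of dermal papilla, while both epithelial populations were above their array medians throughout. The means were 11.29 ± 0.26 (SD, n = 3), 7.98 ± 0.07 and 7.99 ± 0.63 log2 units. Bulge minus dermal papilla was -3.31 ± 0.29 (SE), 9.94-fold lower in bulge (limma, adjusted p = 6.01e-06). Hair germ minus dermal papilla was -3.29 ± 0.29 (limma, adjusted p = 6.66e-06), and both calls held under the 19 alternatives. Bulge and hair germ were not separated, at 0.019 with a 95% interval of -0.63 to 0.67 (limma, adjusted p = 0.976). Dermal papilla markers, 11 genes, summed to 15574 to 21301 in dermal papilla, 201 to 250 in bulge and 213 to 586 in hair germ. The 586 belonged to hair germ on day 56, the hair germ array with the highest Trps1. Wif1, at 72.5, 382 and 114 on days 43, 56 and 69, made up most of it, and Crabp1 was also just above the array median on day 56, at 55.3. Sox2 was above it on day 43, at 54.0, and the other 8 markers, Vcan, Rspo2 and Prrx1 among them, were below the median on all hair germ arrays. Their part in the Trps1 values of hair germ was not tested.

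The 2 Msx genes showed small differences at low signal. Msx1 signals were 76.1, 72.7 and 94.7 in bulge, 55.8, 46.0 and 40.1 in dermal papilla, and 20.6, 41.4 and 49.5 in hair germ on days 43, 56 and 69. Bulge arrays were above all others, and those of hair germ and dermal papilla overlapped. Hair germ minus bulge was -0.91 ± 0.29 (SE; limma, adjusted p = 0.0485). That call was lost under 9 of 17 alternatives, with limma adjusted p from 0.0155 to 0.182 over the 17. The 9 included leaving out any 1 of the 3 bulge arrays, hair germ replicates 1 or 2, or dermal papilla replicate 2, an added constant of 1 and no filter. Bulge minus dermal papilla was 0.62 (95% interval -0.015 to 1.25; limma, adjusted p = 0.122), and hair germ minus dermal papilla -0.29 (-0.92 to 0.35; limma, adjusted p = 0.467). The other Msx1 probe set was below the median on all 9 arrays, at 14.6, 26.8 and 20.3 in bulge, 7.88, 7.39 and 9.36 in dermal papilla and 13.3, 6.35 and 44.2 in hair germ. It therefore gave no second reading of the difference between hair germ and bulge, whose arrays overlapped there.

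Msx2 averaged 6.47 ± 0.99 log2 units (SD, n = 3) in hair germ, 6.23 ± 0.62 in dermal papilla and 6.17 ± 0.53 in bulge, with overlap among all 3 populations. Hair germ minus bulge was 0.30 (95% interval -0.75 to 1.35; limma, adjusted p = 0.708), hair germ minus dermal papilla 0.24 (-0.81 to 1.29; limma, adjusted p = 0.725) and bulge minus dermal papilla -0.06 (-1.11 to 0.99; limma, adjusted p = 0.937). Its spread over the 3 days was wide for this series: 94.9% of tested genes varied less in bulge, 91.5% in dermal papilla and 97.3% in hair germ.

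Dlx3 and Foxn1 were near the bottom of the scale on every array. Dlx3 signals ran from 5.22 to 19.2 in bulge, from 11.2 to 28.1 in hair germ and from 0.829 to 20.9 in dermal papilla on the brighter of 2 probe sets, and from 1.41 to 9.16 over all arrays on the other. Foxn1 gave 19.2, 13.9 and 10.5 in bulge, 1.58, 4.70 and 8.31 in dermal papilla, and 10.9, 32.4 and 3.55 in hair germ, so its bulge and dermal papilla arrays did not overlap although all were low. With no filter, neither gene was called in any pairwise contrast (limma, adjusted p = 0.241 to 0.993). Detection calls were not used here, so a signal below the median is a low reading and does not show that a transcript is absent.

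**Figure D2:**
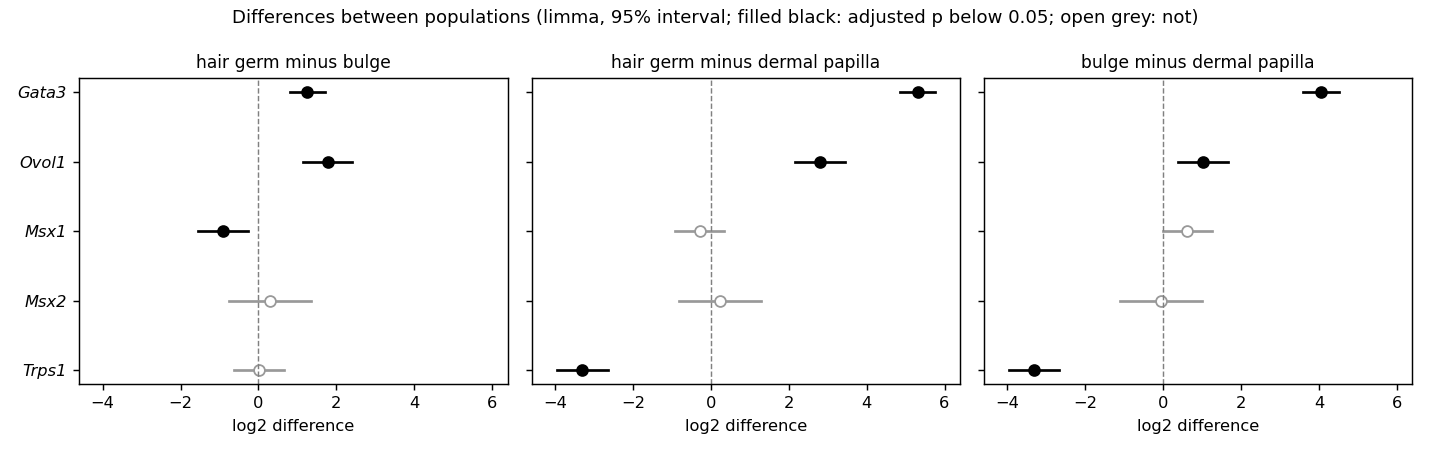
Log2 differences of the 5 tested genes for the 3 pairs of populations, with 95% intervals from limma over all 9 arrays. Filled black points have an adjusted p below 0.05 and open grey points do not: Gata3 and Ovol1 lie to the right of 0 in every panel, Trps1 lies near -3.3 in both panels that involve dermal papilla, and every interval for Msx2 spans 0.

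In each pair of populations 3 of the 5 tested genes were called, by limma at an adjusted p below 0.05. The shares of all 7796 genes called were 19.8% for hair germ against bulge, 39.3% for hair germ against dermal papilla and 35.1% for bulge against dermal papilla. The 3 and 3 arrays did not overlap for 38.9%, 45.6% and 52.6% of all genes in the same order. The 3 contrasts share arrays, so these counts are not separate evidence. With so few genes, and Ovol1 tested only through its high population, the counts say nothing particular about the group.

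Over the days, no member passed the test across the populations. Against day 43, limma called on day 69 and on day 56 0 of the 5 genes and 0% of the 7796 genes, with 7.25% and 5.11% of them at an unadjusted p below 0.05. Gata3 had the smallest p of the 5 for day 69, at -0.48 ± 0.21 (SE; limma, unadjusted p = 0.0392, adjusted p = 0.681). Its later array was lower by 0.44 in bulge, 0.48 in dermal papilla and 0.53 in hair germ, and 9.83% of genes were lower on day 69 in all 3 populations. The dermal papilla signals behind this were all below 8, near 0.

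Within a population there was 1 array per day and no test. In hair germ, Ovol1 signals went from 105 to 163 to 232, a difference of 1.04 log2 units between days 69 and 43, and from 46.1 to 90.0 to 176 on the second probe set, a difference of 1.63. Both probe sets were ordered by day. A rise over the 3 days that reached 2-fold was seen in 6.04% of genes in hair germ, so such a course was not rare there. The GAPDH 3′/5′ ratio was 8.34, 2.97 and 7.90 on the same arrays. Their median signals also rose over the days, at 43.5, 53.8 and 56.3, and signals were not rescaled. Krtdap, an epidermal differentiation gene, was at 1219, 2033 and 6707 on these arrays and Ly6d at 437, 1508 and 1603. The 10 epidermal differentiation and inner bulge markers as a set were not ordered by day, with summed signals of 22581, 14366 and 40525. Krt1, for instance, was at 2865, 1800 and 4837. The part of RNA quality, of the array medians and of these genes in the course of Ovol1 was not tested.

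Msx2 ran in opposite directions in bulge and dermal papilla. Over days 43, 56 and 69 its bulge signals were 88.0, 55.5 and 34.0, while those of dermal papilla were 34.5, 54.4 and 102. The bulge array of day 69 and the dermal papilla array of day 43 were below their array medians, as was hair germ on day 69. Day 69 minus day 43 was -1.06 in bulge and 1.23 in dermal papilla, each just past 2-fold. A fall of that kind over the 3 days was seen in 0.859% of genes in bulge and a rise in 4.57% in dermal papilla, and 15 genes (0.192%) were 2-fold lower in bulge and 2-fold higher in dermal papilla between these days. In hair germ the signals were 60.6, 171 and 32.5, with the peak on day 56, and 1.76% of genes stood 2-fold or more above both other days there.

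That hair germ array of day 56 was the highest of its population for Msx2, Trps1, Dlx3 and Foxn1, 4 of the 7 genes. Dlx3 and Foxn1 were below the median throughout. Among tested genes this held for 2 of the 5 members and 33.8% of all, so the count says nothing particular about the group. The day 56 array was also the hair germ array with the lowest GAPDH ratio, 2.97 against 7.90 and 8.34. Among hair germ arrays, summed markers of melanocytes, dermal fibroblasts, dermal papilla, and muscle and pericytes were highest there. Those of leukocytes, T cells, endothelial, Schwann and sebaceous cells were not. Over days 43, 56 and 69 the hair germ arrays had summed melanocyte signals of 2679.9, 5055 and 2261, with the pigment gene Dct at 1369, 2519 and 1059.9, and summed dermal fibroblast signals of 240.3, 983 and 426. The part of RNA quality and of these cells in the day 56 values was not tested. Without the 3 arrays whose ratio was above 6, which leaves 1 hair germ array, hair germ minus bulge was 0.73 for Trps1 (limma, adjusted p = 0.0987) and 1.38 for Msx2 (limma, adjusted p = 0.0796). Gata3 was at 1.32 (limma, adjusted p = 0.0206) and Ovol1 at 1.81 (limma, adjusted p = 0.00774) there. These p-values assume that the lone hair germ array varies as the bulge and dermal papilla arrays do, since hair germ had no spread of its own left.

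**Figure D3:**
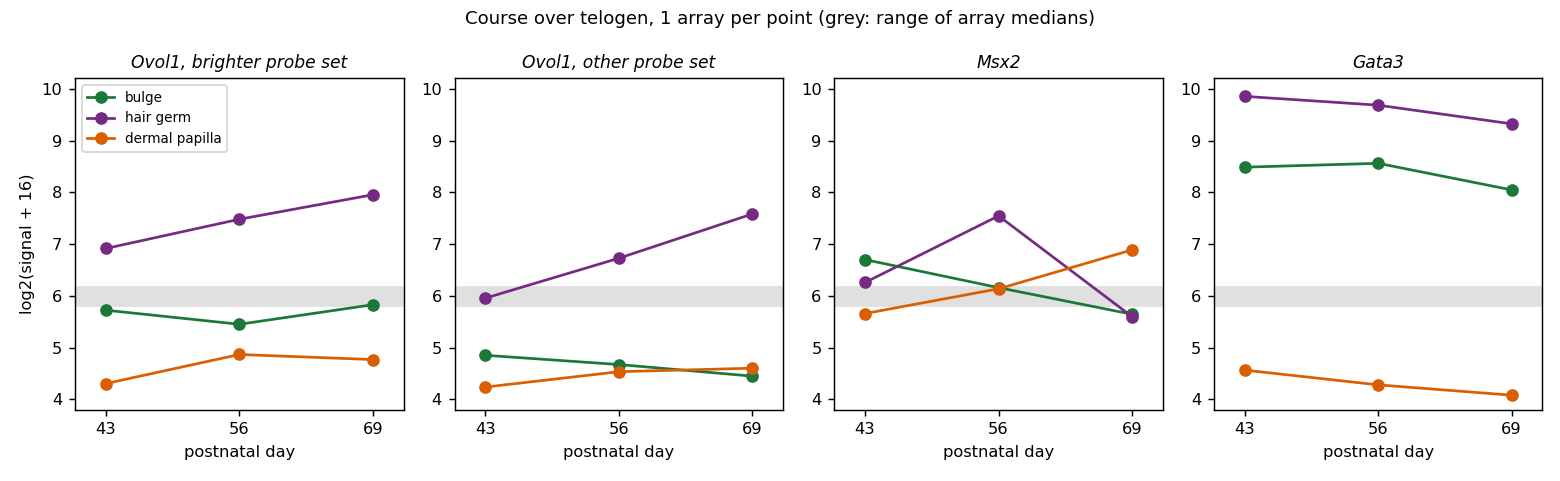
Course of Ovol1 (both probe sets), Msx2 and Gata3 over postnatal days 43, 56 and 69, as log2(signal + 16), with 1 array per point and the array medians in grey. Ovol1 climbs in hair germ on both probe sets, Msx2 falls in bulge and climbs in dermal papilla, and Gata3 ends lower on day 69 in all 3 populations.

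Of 14 paralogs of the members on the array 4 were tested, against 7796 of all 12393 named genes. In hair germ against bulge 2 were lower and 0 higher, with a median of -0.95 against 0.10 for all genes. Against dermal papilla 3 were higher and 0 lower in each epithelial population. This list and those below were chosen with earlier results of these data known. For them, the shares of all genes called were 19.8% in hair germ against bulge and 39.3% in hair germ against dermal papilla. In bulge against dermal papilla the share was 35.1%. Ovol2 signals were 80.7, 74.0 and 114 in bulge, 30.7, 77.8 and 37.6 in hair germ and at most 6.03 in dermal papilla. Hair germ minus bulge was -0.76 ± 0.33 (SE) for Ovol2 (limma, adjusted p = 0.137), where Ovol1 was at 1.78. Gata6 stood at -0.81 ± 0.27 in that contrast (limma, adjusted p = 0.0625), where Gata3 was at 1.26. Whether the paralogs of a pair differ in this contrast was not tested. Both were higher in epithelium than in dermal papilla, Ovol2 by 2.41 and Gata6 by 2.68 in bulge (limma, adjusted p = 0.000165 and 1.9e-05). Dlx5, a homeobox gene related to Dlx3, was above its array median on 4 arrays, with signals of 103, 115 and 124 in bulge and 44.8, 38.9 and 53.5 in hair germ, and was lower in hair germ by 1.08 (-1.08 ± 0.27; limma, adjusted p = 0.0191). Foxn2 was also lower in hair germ (-1.12 ± 0.34; limma, adjusted p = 0.0396). Dlx1, Dlx2, Dlx4, Dlx6, Msx3, Gata1, Gata2, Gata5 and Foxn4 were below the median on all 9 arrays.

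Other follicle transcription factors made a list of 24 genes on the array, of which 17 were tested, the paralogs Gata6, Ovol2 and Dlx5 among them. In hair germ against bulge 3 were higher and 2 lower, 12 were not called, and the list median was -0.10 where that of all genes was 0.10. The AP-2 gene Tfap2c (2.07 ± 0.27), Klf5 (1.85 ± 0.26) and the homeobox gene Cux1 (1.41) were higher with Gata3 and Ovol1, and Hr, the hairless corepressor gene, was lower at -1.49, the second lower gene being Dlx5 (limma, adjusted p = 0.000428 to 0.00347 for the first 4). Tfap2c and Cux1 were also lower in bulge than in dermal papilla, at -2.74 and -1.17 for bulge minus dermal papilla, where Gata3 was at 4.05. In hair germ against dermal papilla 9 were higher and 3 lower, with a list median of 0.92 against 0.15 for all genes, led by Prdm1 (-4.41), Klf5 (3.15), the vitamin D receptor gene Vdr (2.80) and Ets2 (2.79). In bulge against dermal papilla 9 were higher and 5 lower, with a list median of 1.30 against 0.05, led by Hr (3.92), Prdm1 (-3.78), Lef1 (-3.02) and Vdr (2.85). Prdm1, a zinc finger repressor, was arranged like Trps1, with signals of 819 to 1251 in dermal papilla and at most 67.5 in epithelium. Lef1 control drives the red reporter of the sort, and Lef1 passed the filter through its 3 dermal papilla arrays alone, so its difference is no finding. Hoxc13, which regulates hair keratins, was above the median in both epithelial populations, at 119, 108 and 83.8 in bulge and 69.1, 175 and 67.5 in hair germ, with its hair germ peak on day 56 as for Msx2.

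**Figure D4:**
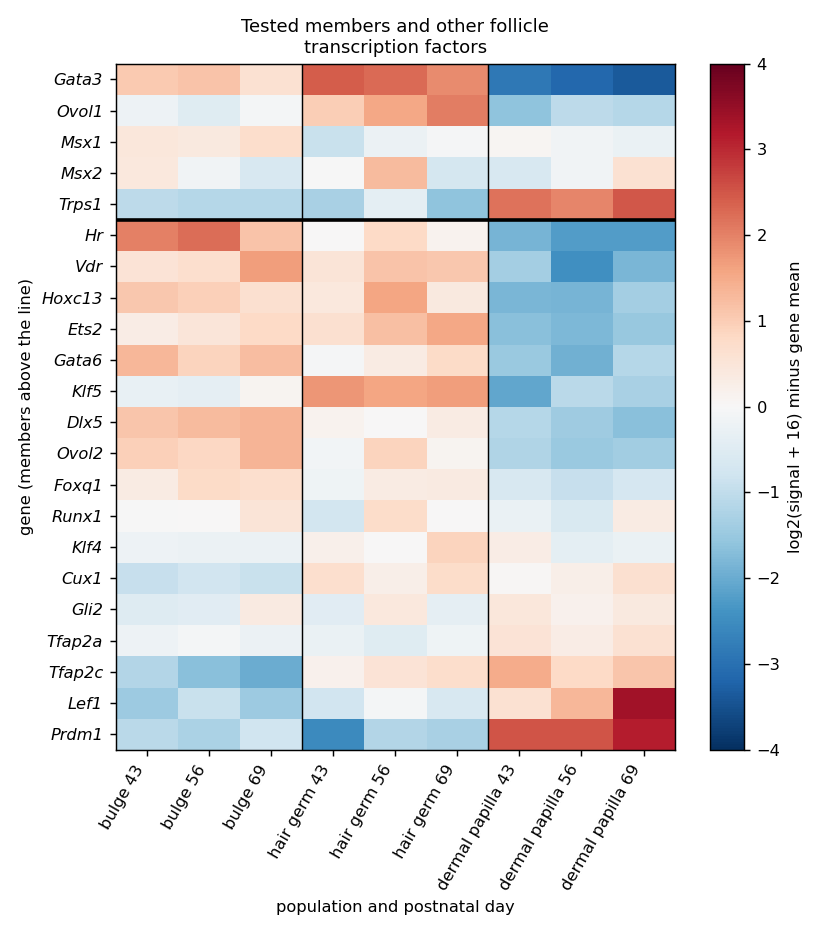
Heat map of the 5 tested members (above the black line) and 17 other follicle transcription factors, as log2(signal + 16) minus each gene's mean over the 9 arrays, in columns by population and postnatal day. Gata3 and Ovol1 are red in hair germ with Klf5, and Trps1 is red in dermal papilla with Prdm1. Lef1 is also red there, but its control drives the red reporter of the sort, so its difference is no finding.

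Most listed genes of the differentiated hair layers were below the median on every array, and no growing follicles were measured for comparison. Of 21 hair shaft and companion layer genes on the array 12 were below the median on every array, including 10 of the 16 keratin and keratin-associated protein genes. So were 7 of 9 inner root sheath genes, among them Krt25, Krt27, Krt71 and Krt72. The filter kept 5 of the 21 and 2 of the 9, against 7796 of all 12393 named genes. The share of all genes below the median on every array is not given here. Of the 5 tested shaft and companion genes, 2 were lower in hair germ against bulge, Krt75 of the companion layer (-3.27 ± 0.32; limma, adjusted p = 9.14e-05) and Selenbp1 (-1.70), and 0 were higher. Krt75 was above the median on the 3 bulge arrays alone, at 254, 315 and 238 against at most 24.2 elsewhere, so like Ovol1 it was tested only through the population where it was high. Against dermal papilla, Krt32 was higher in hair germ (1.91) and in bulge (2.49), Krt75 was higher in bulge (3.40), and Selenbp1 was lower in hair germ (-1.15). The 2 tested genes of the inner root sheath list were Lgals7 (4.75 in hair germ, 4.50 in bulge) and Tchh (0.92 and 0.93). Both were higher in each epithelial population than in dermal papilla, and neither was called between hair germ and bulge.

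Genes of the BMP, WNT, EDA and NOTCH inputs to this group were tested for 21 of 27 on the array. Lef1, counted here too, and Eda passed the filter through 3 arrays of 1 population alone, dermal papilla and bulge respectively. Their testing thus already presupposed a difference. In hair germ against bulge 5 were higher and 4 lower, with a median of 0.24 against 0.10 for all genes, led by the BMP ligand genes Bmp6 (-3.46) and Bmp4 (2.38), the WNT ligand gene Wnt5a (2.10) and the stem cell repressor gene Tcf7l1 (-1.55 ± 0.26; limma, adjusted p = 0.00207). In hair germ against dermal papilla 5 were higher and 7 lower, with a median of -0.06 against 0.15, led by Bmp4 (-4.63), the NOTCH ligand gene Jag2 (3.76) and Wnt5a (-2.32). In bulge against dermal papilla 6 were higher and 6 lower, with a median of 0.04 against 0.05, led by Bmp4 (-7.01), Wnt5a (-4.42) and Jag2 (3.16). Bmp4 signals were 4124 to 4679 in dermal papilla, 114 to 205 in hair germ and 13.4 to 23.7 in bulge. The EDA receptor gene Edar, the gene of its adaptor, Edaradd, and the WNT ligand gene Wnt10b were below the median on all arrays.

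Likeness of pattern was measured as Pearson's r over the 9 arrays among the 7796 tested genes and is a description, since the arrays fall into 3 populations and share a scale. The 3 genes most like Gata3 were Tnfrsf18, Tubb4b and Cxadr (r = 0.991, 0.991 and 0.991). Those most like Ovol1 were Abhd6, Ctsh and Ptpn14 (r = 0.987, 0.983 and 0.983), and those most like Trps1 were Ndn, Plekhh2 and Tmem167 (r = 0.994, 0.993 and 0.992). Msx1 was most like Tirap (r = 0.982), Ltbp2 and Kansl1l, and Msx2 was most like the cornified envelope gene Lor (r = 0.930), Erg28 and Mpc1. Among the members themselves, r was 0.848 for Gata3 with Ovol1 and -0.945 for Gata3 with Trps1, while Msx1 with Msx2 was at -0.307.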

How the data were processed

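The authors deposited MAS5 probe set signals, linear intensity values, made in GCOS per the submitters' processing notes. Versions, scaling target and detection calls are not given in the sources used here. Of 22690 probe sets, 64 controls were set aside, and the rest were analysed as log2(signal + 16) without rescaling. Names came from the platform annotation (20380 probe sets with 1 gene, 691 with several, 1555 with none), updated by gene ID. Probe sets above their own array's median on at least 3 of 9 arrays were kept, and the brightest represented a gene, giving 7796 genes. R 4.3.3 and limma 3.58.1 fitted population and age as additive terms (4 residual degrees of freedom, eBayes with trend). Benjamini-Hochberg adjustment of the two-sided p-values ran over all 7796 genes and called below 0.05. The days serve as replicates of a population. The number of arrays limits the precision. Alternatives were the added constant, scaling, filter, probe set rule, age term, trend, each array left out, and arrays with a GAPDH 3′/5′ ratio above 6 left out. The members were named in full. From each gene list up to 4 called genes per pair of populations were named, and the 3 genes most like each tested member. Members and lists were chosen with earlier results of these data known.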

Additional observations from a re-analysis of the deposited data

Results flagged for a closer look

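Msx2 was picked out because it moved in opposite directions in 2 populations between days 43 and 69: 1.23 log2 units higher on day 69 in dermal papilla and lower in bulge (-1.06). Each value compares 1 array with 1 array, and the difference between the populations was not tested. The dermal papilla array of day 43 had a GAPDH 3′/5′ ratio of 6.62, and that of day 69 a ratio of 3.77. The groups of 3 arrays are too small for a check on single outlying arrays.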

How the results depend on the processing

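Of 450 comparisons of 25 member results with 19 alternatives, 413 kept direction and side of the threshold, 14 lost the call, 1 gained it and 22 reversed, all of them values that were not called. The gain was Msx1 in bulge against dermal papilla without the 3 arrays of high GAPDH ratio (0.71; limma, adjusted p = 0.0250). Requiring 6 of 9 arrays above the median left 3 members tested and 1 called in hair germ against bulge, since Ovol1 and Msx1 were not tested there, and the mean of probe sets left Msx1 untested. Under quantile normalization and median centring, Trps1 in hair germ minus bulge was -0.081 and -0.19, and Msx2 in bulge minus dermal papilla was 0.0060 and 0.0023; the cause was not tested. Leaving out 1 array at a time, 2 to 3 members were called in hair germ against bulge and in bulge against dermal papilla, 3 to 3 in hair germ against dermal papilla and 0 to 0 for both day contrasts. Trps1 then ran from -0.40 to 0.34 in hair germ minus bulge, and Msx2 from -0.26 to 0.77 there, from -0.32 to 0.92 in hair germ minus dermal papilla and from -0.52 to 0.62 in bulge minus dermal papilla. For day 69 minus day 43 the ranges were -0.029 to 0.49 (Msx1), -0.84 to 0.31 (Msx2) and -0.32 to 0.28 (Trps1), and for day 56 minus day 43 -0.15 to 0.36 (Msx1), -0.16 to 0.87 (Msx2) and -0.23 to 0.48 (Trps1). Over all genes, 1541 calls in hair germ against bulge became 783 to 1609 without 1 array and 1000 without the arrays of high GAPDH ratio. The median of all genes in that contrast moved from 0.10 to -0.05 under quantile normalization and -0.11 under median centring. The split of calls there was 952 higher and 589 lower, against 693 and 794 under quantile normalization and 613 and 941 under median centring, while Gata3 and Ovol1 stayed higher and Msx1 lower, all called, under both. Without the age term, which acts as the replicate block here, 3 members were called in each pair of populations. The labels give no replicate numbers. Signals below the array medians limit Dlx3, Foxn1 and the second Msx1 probe set.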
